A study of Mus musculus with 2 samples.

Results

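The genes described here encode the extracellular side of Wnt signalling. They are the Wnt ligands, the Frizzled (Fzd) receptors and 2 families of secreted inhibitors, the secreted Frizzled-related proteins (Sfrp) and the Dickkopf proteins (Dkk). Members were the protein-coding genes of chromosomes 1 to 19 in GENCODE vM21 whose names are Wnt, Fzd, Sfrp or Dkk followed by a number, with a pair of Wnt genes not analysed here. This gave 35 of 20807 protein-coding genes, of which 17 were Wnt, 10 Fzd, 4 Sfrp and 4 Dkk genes. The series measured binding of CTCF by chromatin immunoprecipitation and sequencing (ChIP-seq) in midbrain tissue of the mouse strain B6NCrl, postnatal at age 0 day. There was 1 group of 2 replicates, with sex not collected. The labels give both replicates 1 biosample record and 1 donor record, and differences between the replicates may be technical only. No treatment or altered allele is named in the labels, and no second tissue or condition allowed a comparison between groups. Because midbrain tissue holds many cell types, a low signal could come from few cells or from little binding per cell, and these cannot be told apart. All values below are therefore descriptions, set beside the same value over all coding genes or all peaks, and no test was made.

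Wnt ligands are lipid-modified secreted glycoproteins that bind the cysteine-rich domain of Frizzled receptors together with the co-receptors Lrp5 and Lrp6. In the canonical branch this stops the destruction complex of Axin, Apc and Gsk3 from degrading beta-catenin, which then acts with Tcf and Lef factors in the nucleus. Sfrp proteins carry a Frizzled-like domain and bind Wnt ligands outside the cell, whereas most Dkk proteins block the Lrp co-receptors. In the developing midbrain, Wnt signals pattern the tissue and act on the birth of dopaminergic neurons. CTCF, a protein with many zinc fingers, recognises a long motif that has a direction, and it halts the cohesin ring complex in a way that depends on that direction.

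The deposited lists name peaks, each with a summit position and a signal value whose scale is not given in the sources used here. Of the 68603 peaks in the optimal list, which was thresholded by the irreproducible discovery rate (IDR, a comparison of peak ranks between sets), 66972 lay on chromosomes 1 to 19. Their median signal was 76.2. The read depth is unknown, so the absence of a peak from the list does not show that CTCF was absent from a gene. A signal is given below first from the optimal list and then from the unthresholded lists of replicate 1 and replicate 2. The values of the separate lists are on their own scales. A distance is from the nearest annotated transcript start to the summit, negative when upstream, and coordinates are 1-based on mm10. A motif site is a match, no farther than 50 bp from the summit, to a 20 bp CTCF matrix learned from these peaks on other chromosomes, at a p of 1e-05 for each position and strand. The most frequent base at each place spelled TGGCCACCAGGGGGCACTAG in the matrix from odd-numbered chromosomes and TGGCCACCAGGTGGCACTAT in that from even-numbered ones.

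The sequences that the results turn on follow, each read from GRCm38.p6 in the direction of the motif, with the 20 bp match in capitals. The first set holds the sites upstream of the paralogs Wnt7a and Wnt7b, which had the strongest promoter peaks of all members, and the nearest site upstream of each of those. All of these matches lay on the minus strand, as both genes do.
Wnt7a, 556 bp upstream, chr6:91411898-91411947: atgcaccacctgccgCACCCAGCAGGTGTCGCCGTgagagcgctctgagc
Wnt7a, 3722 bp upstream, chr6:91415053-91415102: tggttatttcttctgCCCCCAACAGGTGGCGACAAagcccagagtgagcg
Wnt7b, 769 bp upstream, chr15:85583221-85583270: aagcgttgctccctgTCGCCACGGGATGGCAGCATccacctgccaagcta
Wnt7b, 1236 bp upstream, chr15:85583683-85583732: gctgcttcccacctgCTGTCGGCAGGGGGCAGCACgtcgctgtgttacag

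The second set holds the motif sites between the starts of Wnt3a and Wnt9a and of Wnt9b and Wnt3. Each of these gene pairs is transcribed away from a shared gap. They are shown from low to high coordinate, with the strand of the match.
Wnt3a-Wnt9a gap, minus strand, chr11:59293794-59293843: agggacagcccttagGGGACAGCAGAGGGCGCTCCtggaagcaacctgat
Wnt3a-Wnt9a gap, minus strand, chr11:59298120-59298169: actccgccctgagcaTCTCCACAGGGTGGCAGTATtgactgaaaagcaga
Wnt3a-Wnt9a gap, plus strand, chr11:59300354-59300403: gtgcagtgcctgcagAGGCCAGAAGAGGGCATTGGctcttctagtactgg
Wnt3a-Wnt9a gap, plus strand, chr11:59302887-59302936: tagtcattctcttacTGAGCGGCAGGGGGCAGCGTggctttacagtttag
Wnt9b-Wnt3 gap, minus strand, chr11:103758917-103758966: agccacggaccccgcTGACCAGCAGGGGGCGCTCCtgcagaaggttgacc
Wnt9b-Wnt3 gap, plus strand, chr11:103761084-103761133: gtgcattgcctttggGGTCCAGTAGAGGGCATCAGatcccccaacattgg
Wnt9b-Wnt3 gap, plus strand, chr11:103763914-103763963: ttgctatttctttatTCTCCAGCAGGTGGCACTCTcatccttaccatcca

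The third set holds sites inside the coding exon of 3 Frizzled genes, where most Frizzled peaks within gene bodies fell.
Fzd7, plus strand, chr1:59483907-59483956: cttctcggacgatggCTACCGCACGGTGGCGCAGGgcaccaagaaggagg
Fzd5, plus strand, chr1:64736047-64736096: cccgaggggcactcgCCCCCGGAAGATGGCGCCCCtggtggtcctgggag
Fzd2, minus strand, chr11:102605227-102605276: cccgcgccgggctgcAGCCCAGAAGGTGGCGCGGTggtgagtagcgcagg

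The fourth set holds sites with the same 11-base core, CCAGAAGAGGG, in repeat-masked sequence. The third site of the Wnt3a-Wnt9a gap above has it too.
Fzd2, 4290 bp upstream, chr11:102600076-102600125: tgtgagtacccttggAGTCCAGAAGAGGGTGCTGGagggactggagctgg
Fzd9, 12193 bp downstream, chr5:135239006-135239055: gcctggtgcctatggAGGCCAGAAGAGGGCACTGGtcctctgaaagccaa
Wnt7b, 15129 bp upstream, chr15:85597581-85597630: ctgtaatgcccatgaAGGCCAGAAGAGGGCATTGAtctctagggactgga
Wnt10a, 15835 bp downstream, chr1:74809167-74809216: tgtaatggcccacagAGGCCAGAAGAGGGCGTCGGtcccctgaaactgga

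A CTCF summit lay within 1 kb of a transcript start in 17 of 35 members (48.6%), against 44.2% of all coding genes. By role, this held for 8 of 17 Wnt ligands, 4 of 10 Fzd receptors, 3 of 4 Sfrp and 2 of 4 Dkk inhibitors. Within 5 kb of a start the count was 27 of 35 (77.1%), against 62.4% of coding genes. It was made up of 12 Wnt, 7 Fzd, all 4 Sfrp and all 4 Dkk genes. Sfrp5 was counted by a summit at 4989 bp, just inside the limit, and Sfrp1 by a weak one of 24.5. In the strongest peaks of either replicate alone, Sfrp1 had no summit within 5 kb. Members have fewer annotated starts than coding genes at large, with a median of 1 against 3 per gene. Counting from the outermost start of each gene alone, 15 of 35 members had a summit within 1 kb, against 36% of coding genes. Within 5 kb of that start 26 of 35 did, against 54.4%. Beyond this count, the part of the number of starts in the shares was not tested. The median distance to the nearest summit was 1060 bp, against 1750 bp over all coding genes. With the stronger 50% of peaks alone 9 members had a summit within 1 kb (23.7% of coding genes), and within 500 bp 11 members did (36.5%). Over all annotated starts, the share within 1 kb was thus near the background, while the share within 5 kb lay above it. The plot of genes with a peak shows both shares by family.

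**Figure D1:**
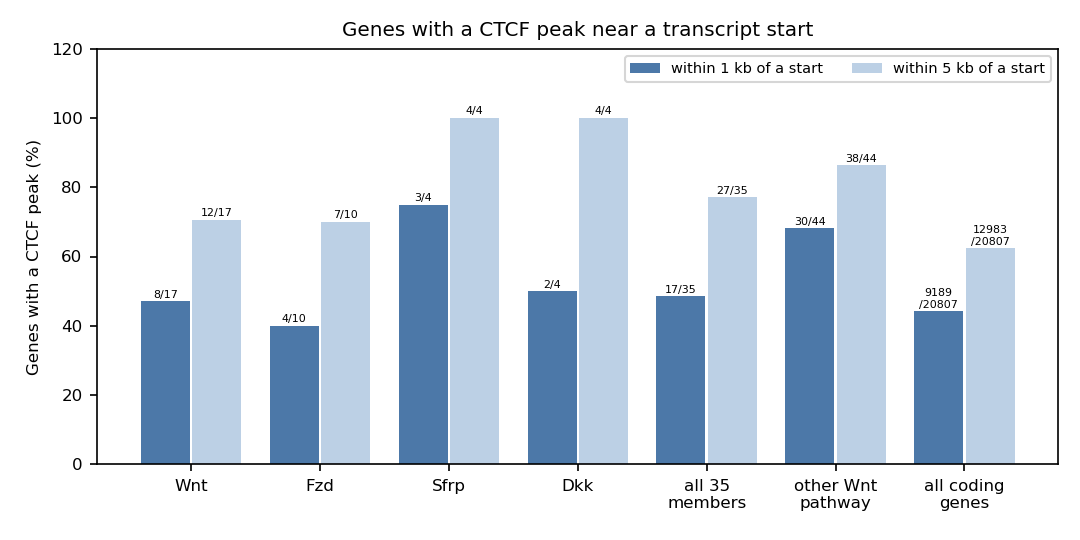
Share of genes (%) with a summit of the optimal list within 1 kb (dark bars) or 5 kb (light bars) of a transcript start, with counts above the bars. At 1 kb the 35 members (17 of 35) sat near all coding genes (44.2%), and at 5 kb all 8 Sfrp and Dkk inhibitors had a summit. That of Sfrp5 was at 4989 bp, and that of Sfrp1 was weak (24.5).

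Among the ligands, Wnt7a and Wnt7b stood at the top. These paralogs are known for their action on the blood vessels of the central nervous system. Wnt7a had a peak of 447 (238 in replicate 1 and 210 in replicate 2) at 556 bp upstream, at percentile 97.4 of all peaks. Wnt7b had one of 419 (214 and 204) at 769 bp upstream, at percentile 95.5. Both replicates gave the promoter peaks of this pair the highest values of any member promoter peak. Each gene also had a second peak further upstream, of 283 (155 and 129) at 3722 bp for Wnt7a and of 275 (149 and 128) at 1236 bp for Wnt7b. The 4 sites printed above all point in the direction of transcription of their gene. The matches of the 2 promoter peaks shared 9 of 20 bases. The median was 11 over pairs of 82 member sites without the 11-base core, with the sites on chromosome 18 left out. Wnt7b had a further weak peak of 41.1 (26.8 and 15.3) without a motif site at 77 bp upstream of an internal start.

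Wnt11, a ligand of the beta-catenin-independent branch with a role in kidney branching, had 2 summits near its internal starts. The stronger, of 286 (144 and 141) at 754 bp upstream, held no motif site, and the other, of 152 (92.4 and 58.4) at 149 bp downstream, held one. Wnt5b had 4 summits within 1 kb of its starts, with signals of 159 (84.5 and 76.2), 65.2, 62.1 and 21.2. Its paralog Wnt5a, which guides tissue elongation and is known in dopaminergic neurons, had 102 (48.2 and 53.4) at 106 bp upstream of an internal start. A weaker one of 33.5 lay 522 bp downstream of its outermost start. Of the 16 members whose strongest promoter peak had a value in both replicate lists, Wnt5a was the single one with the higher value in replicate 2. Its log2 ratio of replicate 1 to replicate 2 was -0.15, against a median of 0.30 (SD 0.46) over all peaks. Wnt16, known from cortical bone, had 152 (81.8 and 68.5) in a coding exon at 5 bp from a start. Ranked by the strongest promoter peak of each gene, the lowest ligands were Wnt10b, with 42.4 (25.4 and 16) at 506 bp downstream, and Wnt8a, with 34.1 (21.3 and 11.3) at 855 bp upstream. Ligand promoter peaks thus spanned a wide range, from 447 at Wnt7a down to 21.2 at the weakest of Wnt5b.

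Of the receptors, Fzd1 had the strongest promoter peak, of 147 (76.1 and 71.7), 4 bp upstream of its single start and without a motif site. Fzd5, needed for eye and gut development, had 47.1 (26.2 and 21.4) at 149 bp downstream, and Fzd2 had 46.9 (31.4 and 18.4) at 841 bp, in its coding exon. Fzd8 had 33.4 at 7 bp upstream and 25 at 720 bp downstream. The first of these had no summit within 100 bp in the replicate 1 list and a value of 12.5 in replicate 2. Apart from Fzd1, the receptor promoter peaks were below the median of all peaks.

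Of the inhibitors, Sfrp4 had 117 (61.7 and 55.1) at 333 bp upstream, without a motif site. Sfrp2 had 28.4 (13.8 and 13.6) at 349 bp upstream and 23.3 at 34 bp upstream of an internal start. Sfrp1 had 24.5 (12.4 and 10.2) at 545 bp downstream. Dkk3, a divergent member of its family, had 93.6 (53 and 38.2) at 969 bp upstream. Dkk1, an inducer of head structures, had 70.8 (44.8 and 24.7) at 154 bp and 64.9 (45.9 and 18.9) at 988 bp, both downstream and both without a motif site. The Dkk1 values of replicate 1 stood further above replicate 2 than at the leading ligands.

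**Figure D2:**
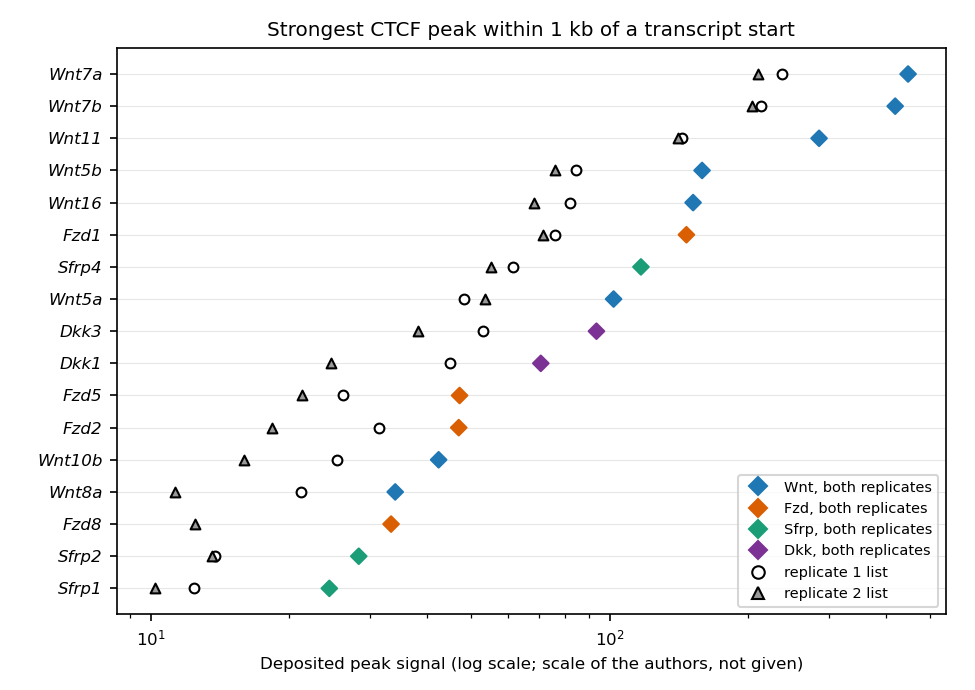
Deposited signal (log axis) of the strongest peak within 1 kb of a start in the 17 members that had one. Coloured diamonds give the optimal list, open circles the replicate 1 list and grey triangles the replicate 2 list. Wnt7a (447) and Wnt7b (419) sat highest and Sfrp1 (24.5) lowest, and Fzd8 had no replicate 1 value.

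The 26 summits within 1 kb of a member start had a median signal of 63.5 and ranged from 21.2 to 447. A motif site was found in 13 of 26, against 39.2% of all peaks within 1 kb of a coding start, whose median signal was 65.6. Summits lay upstream of the nearest start in 14 and downstream in 12 of the 26. Of the 13 sites, 6 were on the strand of the gene. The strongest promoter peak per gene had a median signal of 93.6 over the 17 members and 85.1 over 9189 coding genes. In these median signals member promoter peaks were close to promoter peaks at large, while their share with a motif site was higher (50% against 39.2%). Side and strand were not counted over all promoter peaks.

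In the other 18 members the nearest summit lay between 1060 and 24194 bp from a start. Wnt9a, which acts in joints, had 301 (173 and 124) at 1060 bp downstream, and Wnt8b, known from the hippocampal region, had 42 (16.4 and 26.4) at 1681 bp without a motif site. Wnt10a, known from teeth and hair, had a weak summit of 7.15 at 2500 bp upstream, found in neither replicate list, and one of 352 at 3484 bp upstream. Wnt3a, required in hippocampal development, had 134 (75.3 and 57.7) at 3058 bp upstream. Wnt2b had 163 at 6251 bp upstream and no motif site. Wnt9b had 90.6 at 8429 bp upstream, and Wnt3, required for gastrulation, had 381 (198 and 180) at 10196 bp upstream. Wnt4, known from kidney and ovary, had 359 (185 and 173) in an intron at 10547 bp, and Wnt2, known from the lung, had 82.6 at 13929 bp upstream.

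Among receptors without a promoter summit, Fzd7 had 318 (183 and 134) at 1528 bp downstream, in its coding exon. Fzd6 had 67.9 at 2872 bp upstream and Fzd3, which acts with Fzd6 in planar polarity and axon guidance, had 161 at 3755 bp upstream. Fzd9 had 51.4 at 6513 bp upstream. Fzd4, the Norrin receptor of retinal vessels, had 82.6 at 11326 bp upstream. In the conservative list, and in the strongest peaks of each replicate alone, Fzd4 did have a summit within 1 kb. Fzd10 had 36 at 24194 bp upstream, the farthest of all members. Among inhibitors, Dkk2 had 265 (140 and 126) at 1064 bp upstream, Dkk4 had 67 at 1088 bp upstream and Sfrp5 had 181 at 4989 bp downstream. The nearest summits of Dkk2, Dkk4 and Wnt9a therefore lay just outside the 1 kb limit, and that of Dkk3, at 969 bp, just inside it.

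In the unthresholded list called on both replicates, 14 of these 18 members had a summit within 1 kb, against 50.7% of the coding genes without an optimal summit there. The strongest of these was 36.3, at Fzd4. For Dkk4, Wnt8b, Wnt9a and Wnt9b no summit was listed there even without the threshold. Some members with a promoter peak had a stronger summit between 1 and 5 kb from a start. Sfrp2 had 366 at 1883 bp upstream, Sfrp4 had 304 at 3263 bp upstream, Wnt5a had 287 at 1807 bp downstream, Fzd8 had 167 at 1414 bp downstream and Wnt8a had 394 at 3968 bp upstream.

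The sequence around the member starts was rich in GC. Over 300 bp, from 250 bp before to 50 bp after the outermost start, the median GC content was 64% in members and 55.3% in all coding genes, and the median number of CpG dinucleotides was 18 against 12. Members with a promoter summit had a median GC of 61% and those without one 65.5%. A motif match to the matrix anywhere in this window, on either strand, was found in 2 of 35 members (5.71%), Fzd5 and Wnt9b, against 8.49% of coding genes. Fzd5 had a promoter summit, while none was listed for Wnt9b.

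Widening the view to gene bodies plus 20 kb on each side, 34 of 35 members (97.1%) had at least 1 peak, against 83.9% of coding genes. The exception was Fzd10. In all, 158 distinct peaks lay in these windows, of which 94 belonged to Wnt, 30 to Fzd, 19 to Sfrp and 15 to Dkk genes, and 10 of the 158 were shared by 2 windows. The windows were of like size, with a median of 56.6 kb for members and 57.6 kb for coding genes. The median number of peaks per 100 kb of window was 6.9 in members and 4.66 in coding genes. By family it was 8.22 for Wnt, 6.47 for Fzd, 10.7 for Sfrp and 5.67 for Dkk. Peaks were thus denser around the median member than around the median coding gene.

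The extremes within each family were counted over the whole windows. The map of peaks around starts draws only summits within 20 kb of the outermost start. Wnt5b held the most peaks, 18 in 151.8 kb, and Wnt10a was the most dense, with 11 peaks or 20.9 per 100 kb. Of all coding genes, 0.649% were at least as dense as Wnt10a. Wnt2, Wnt2b and Wnt16 each had 1 peak. Among receptors Fzd8 had the most, with 6, and Fzd7 had 1. Sfrp2 had 7 and Sfrp1 had 2, and Dkk2 had 6 and Dkk3 had 2. Of the 158 peaks, 37 (23.4%) were nearer to the start of another coding gene, while none of the 26 promoter peaks was.

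**Figure D3:**
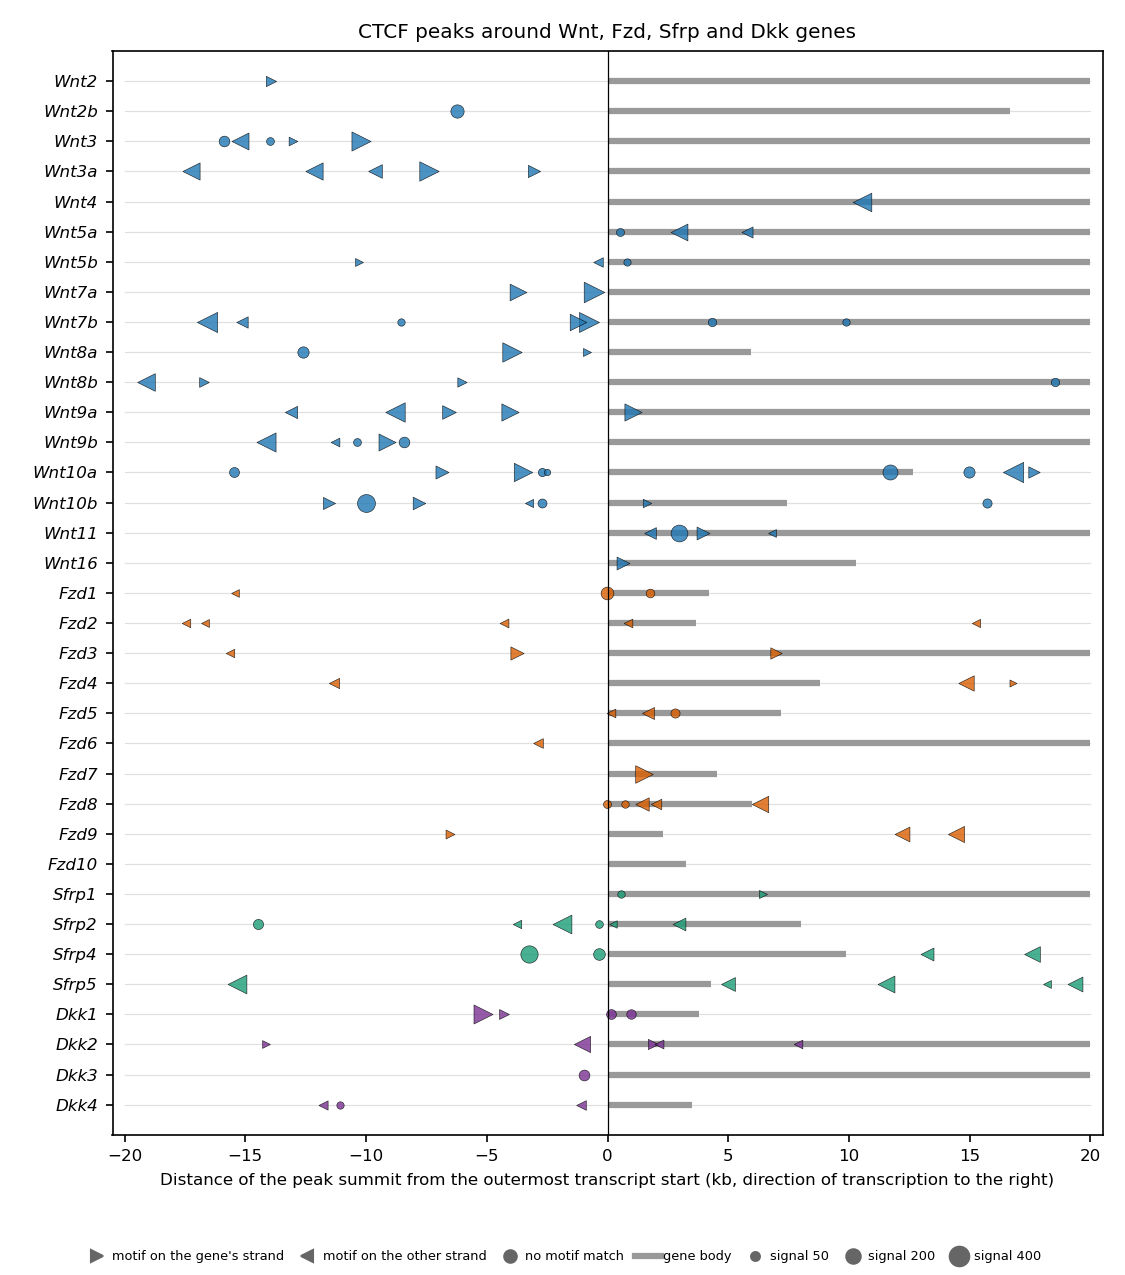
Summits of the optimal list within 20 kb of the outermost transcript start of each member (kb, transcription to the right). Triangles point along or against transcription by the strand of the motif site, circles had no site, symbol area grows with signal and grey bars are gene bodies. The row of Fzd10 is empty, both upstream sites of Wnt7a point to the right, and upstream peaks line up near Wnt3, Wnt3a and Wnt9b.

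The 158 peaks did not stand out in strength. Their median signal was 78.3, at percentile 50.8 of all peaks, and 40 of them (25.3%) were among the strongest 25% of all peaks. Family medians were 86.6 for Wnt, 62 for Fzd, 148 for Sfrp and 67 for Dkk. The 5 strongest were all at ligands. After Wnt7a with 447, these were a peak of 446 (242 and 205) in an intron of Wnt5b at 5073 bp, one of 435 (223 and 212) at 14933 bp downstream of the Wnt10a start, one of 432 (226 and 204) at 16587 bp upstream of Wnt7b, and the Wnt7b promoter peak of 419.

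A motif site was found in 107 of 158 member peaks (67.7%, 95% Wilson interval 60.1% to 74.5%, which covers counting error only), against 63.3% of all peaks and 1.34% of flanking windows. By family it was 59 of 94 for Wnt, 24 of 30 for Fzd, 13 of 19 for Sfrp and 11 of 15 for Dkk. The median signal was 110 with a site and 52.3 without, against 118 and 46.8 over all peaks. Of the 132 member peaks farther than 1 kb from a member start, 94 (71.2%) held a site, against 68.5% of all peaks farther than 1 kb from a coding start, and their median signal was 82.6. At a motif p of 1e-06 the share fell to 37.3%, against 38.2% of all peaks. Member peaks were therefore near all peaks in the share with a site.

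Of the 158 peaks, 55 lay inside a member body, 36 in introns, 12 in coding exons and 7 in untranslated regions. The remaining 103 were split into 62 upstream and 41 downstream of a member. The Frizzled genes differed from the others in where their peaks fell. Of 10 peaks in Frizzled bodies, 7 lay in coding exon, against 4 of 34 in Wnt, 1 of 4 in Sfrp and 0 of 7 in Dkk bodies. Over all coding genes 6.2% of summits in a gene body lay in its coding sequence. The gene models differ in the same way, in that 7 of 10 Frizzled genes have their coding sequence in 1 segment and 0 of 25 other members do, and the part of this in the count was not tested. The pattern was noticed after the values were seen.

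The 7 coding-exon peaks lay in 5 receptors, all of them genes with 1 coding segment. Fzd7, a receptor of stem and progenitor cells, had the strongest, with 318 (183 and 134). Fzd8 had 167 (101 and 64.5) and 88.1 (54.2 and 34.2). Fzd5 had 127 (72.4 and 54.3), with the site printed above, and 56.1 (32.4 and 23.2). Fzd2 had 46.9 (31.4 and 18.4) and Fzd1 had 46.6 (22.6 and 23.7). The values spanned percentiles 32.9 to 86.1 of all peaks, and 5 of the 7 held a motif site. The sites of Fzd7 and Fzd5 shared 12 of 20 bases, near the median of 11 over pairs of member sites without the 11-base core. None of these 5 sites was repeat-masked.

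The 2 gaps between divergently transcribed Wnt genes had several peaks each. Between the starts of Wnt3a and Wnt9a, 16.2 kb apart, lay 4 peaks, all with a motif site. From the Wnt3a side they had signals of 134 (75.3 and 57.7), 395 (217 and 175), 175 (89.5 and 85.7) and 303 (156 and 146). Between Wnt9b and Wnt3, 24.3 kb apart, lay 5 peaks. From the Wnt9b side they had signals of 90.6 (53 and 37.1), 293 (172 and 122), 31.1 (17.1 and 11.4), 47.6 (21.8 and 24.6) and 381 (198 and 180). The first and the third of these had no motif site. Replicate 1 gave the higher value at 8 of these 9 peaks, the exception being the one of 47.6. Over all peaks replicate 1 was also the higher at the median, with a log2 ratio of 0.30.

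In both gaps the minus-strand sites lay at lower coordinates than all of the plus-strand sites, as the printed sequences show. The minus-strand gene, Wnt3a or Wnt9b, is on the lower side of its gap, so sites of the 2 strands pointed away from each other and toward the gene of their own strand. This arrangement was noticed after the values were seen. It was found in 76 of 999 divergent neighbouring coding gene pairs with gaps of 10 to 30 kb (7.61%). Among those with at least 3 sites it was found in 27 of 79. The site at 395 near Wnt3a and that at 381 near Wnt3 shared 15 of 20 bases. The median over pairs of member sites without the 11-base core was 11.

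**Figure D4:**
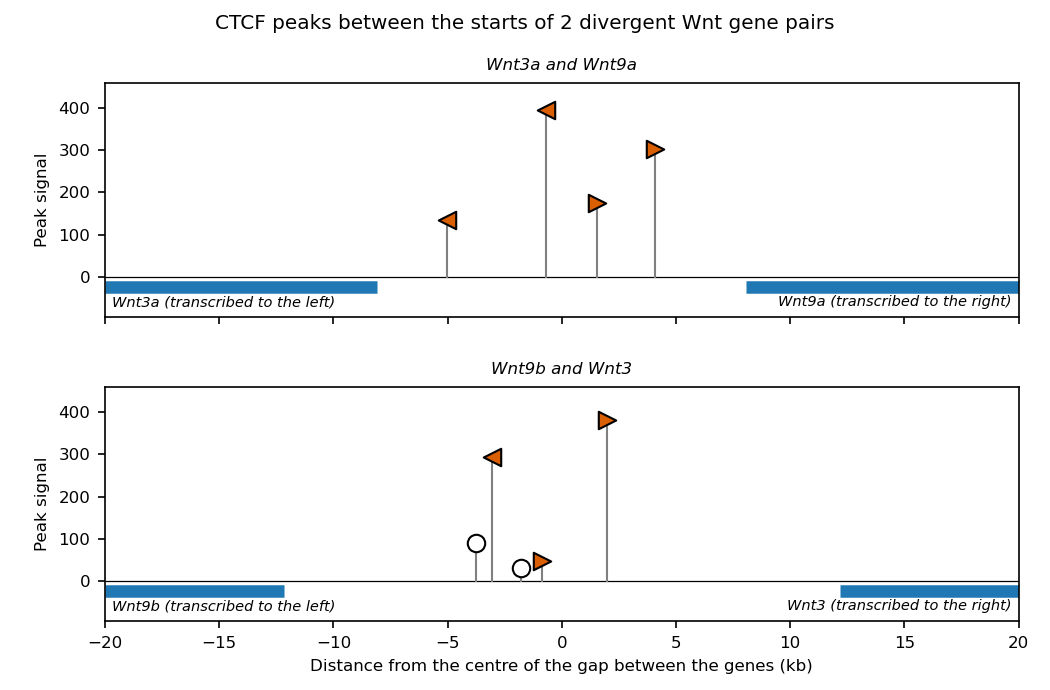
Signal of the optimal peaks in the gaps between Wnt3a and Wnt9a and between Wnt9b and Wnt3, against distance from the middle of the gap (kb). Triangles point in the direction of the motif site, open circles had no site and bars are the gene bodies. In both gaps left-pointing sites lay left of right-pointing ones, and the strongest peaks were 395 and 381.

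The nearest motif sites on the 2 sides of each gene body were convergent (pointing toward the gene from both sides) for 14 of 35 members (40%), against 28.1% of coding genes. They were tandem for 15 (42.9%, against 47%) and divergent for 6 (17.1%, against 24.8%). The median span between these sites was 96 kb for members and 94.3 kb for coding genes. These arrangements were counted after the values were seen. A flanking site downstream of a gene can also be among the downstream sites described next, so these results overlap. Convergent sites flanked 8 ligands, among them Wnt10a with 352 and 435 within 20.3 kb, Wnt7a with 543 and 447 within 125.1 kb, and Wnt3a with 127 and 134 within 54.6 kb. They also flanked Fzd3, Fzd7 and Fzd9, and Sfrp1, Dkk1 and Dkk3. Fzd9 had the shortest of these spans, 18.7 kb, with signals of 214 and 51.4.

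Sites downstream of member genes pointed mostly against transcription. Of 30 pairs of a gene and a site in the 20 kb downstream of 13 members, 5 (16.7%, 95% Wilson interval 7.34% to 33.6%) were on the strand of the gene, against 54.8% over all coding genes. The interval covers counting error only and treats sites of the same gene as independent, which they may not be. The direction of the site was against transcription for all 4 sites of Sfrp5, all 4 of Wnt3a, all 3 of Sfrp4, and both of Fzd8 and of Fzd9. Upstream of members the count was 26 of 52 (50%, against 50%), and inside bodies 12 of 33 (36.4%, against 49.6%). This was noticed after the values were seen and moved with the window. The downstream share was 26.7% within 10 kb (54.6% over all coding genes) and 41.3% within 50 kb (53.8%). It was 27.8% (58.5%) when peaks nearer to another gene's start were left out.

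Of the 107 motif sites, 27 (25.2%) lay in soft-masked repeat sequence, against 29.2% over all peaks. The core CCAGAAGAGGG was in 19 of 107 (17.8%), against 18.4% over all peaks, and all 19 were soft-masked. The genome file does not name the class of repeat. The core was in 9 of 59 Wnt, 7 of 24 Fzd and 3 of 11 Dkk sites, and in 0 of 13 Sfrp sites. All 3 of the Dkk sites were at Dkk2, with signals of 29.6, 81.6 and 46.3. Among receptors the core sites ranged from 16.7 downstream of Fzd4 to 214 downstream of Fzd9, and 3 lay upstream of Fzd2, with 42.6, 31.4 and 50. The median signal was 53.7 with the core, 50 over all masked sites and 148 over unmasked sites, against 50.7, 54.2 and 183 over all peaks. The ranges overlapped, since the intronic Wnt5b peak of 446 and a peak of 215 in the Wnt9a window had soft-masked sites.

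Nearly all of these peaks had a summit in both replicate lists, which the choice of lists makes likely. The optimal list was already selected by IDR, and the replicate lists, of 300000 peaks each, were unthresholded. A summit within 100 bp was found in both replicate lists for 155 of 158 member peaks (98.1%), against 97.8% of all peaks. The median log2 ratio of replicate 1 to replicate 2 signal was 0.30 (SD 0.45 over peaks), and over all peaks it was 0.30 (SD 0.46). Of the 155, 148 (95.5%) were within 2-fold of the median ratio, against 94.7% of all peaks. The range was -0.83, at an intron of Dkk2 (18 and 32.1), to 2.23, at an intron of Wnt7b (17.4 and 3.72). The next most unequal were a core site downstream of Fzd4 (12.5 and 3.47) and a site downstream of Wnt5a (21.4 and 7.14). The optimal signals of the last 3 were 22.9, 16.7 and 30.1, all in the lower part of the list. The peaks missing from a replicate list were those of Fzd8 and Wnt10a given above and one of 25.4 in the Wnt3a window, with 27.8 in replicate 1 and no summit in replicate 2.

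**Figure D5:**
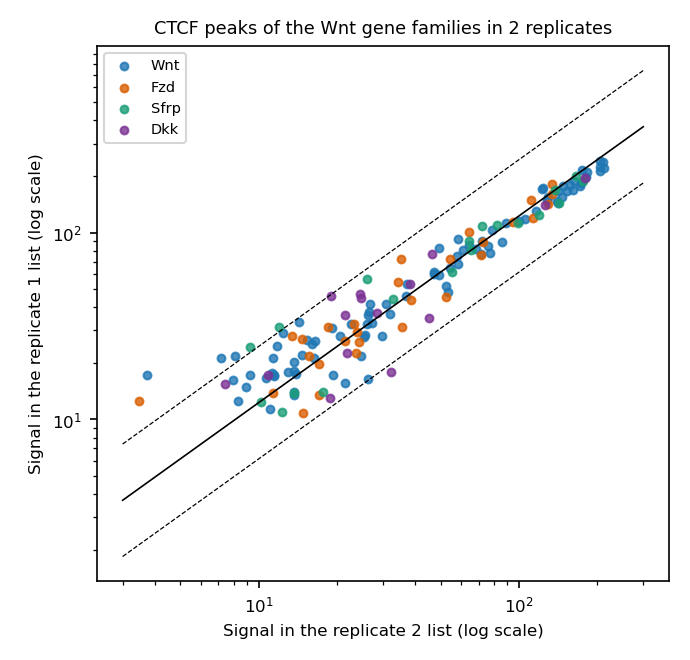
Signal of the 155 member peaks found in both replicate lists, replicate 1 against replicate 2 (both log axes), coloured by family. The solid line is the median ratio over all peaks and the dashed lines are 2-fold from it. Of the 155 points, 148 lie between the dashed lines, and the 3 farthest outside are peaks of Wnt7b (22.9), Fzd4 (16.7) and Wnt5a (30.1).

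Other genes of the pathway were taken from a list of 45, of which 44 were on chromosomes 1 to 19. A summit lay within 1 kb of a start in 30 of 44 (68.2%) and within 5 kb in 38 of 44 (86.4%), against the 44.2% and 62.4% of coding genes above. Among co-receptors and other receptors it was 5 of 7, led by the receptor kinases Ror1 with 275 and Ror2 with 106. In the R-spondin arm, whose members act on receptor levels at the cell surface, it was 6 of 9. It was led by the ubiquitin ligase Rnf43 with 404 and the receptor Lgr6 with 301. Among further secreted inhibitors it was 3 of 5, led by Wif1 with 274 and Frzb with 39.5. In the cytoplasm it was 11 of 13, led by Apc2 of the destruction complex with 244 and the Dishevelled antagonist Nkd2 with 228. In the nucleus it was 5 of 8, led by Tcf7l1 with 475 and the beta-catenin cofactor Bcl9l with 262. For the role listed as secretion it was 0 of 2. The nearest summit to Wls, the carrier of Wnt ligands to the cell surface, lay 114949 bp away, and that to Notum, which removes the lipid from Wnt ligands, lay 1001 bp away. The cytoplasmic genes had the highest share, and Wls and Notum had no summit within 1 kb. In the conservative list Notum, Gsk3a and Ryk did have one within 1 kb. Gsk3b, Kremen1, Lef1, Lgr4 and Rspo3 had none there, and the count was 28 of 44. The strongest promoter peaks of Kremen1 (17.1), Gsk3b (17.4) and Lef1 (23.4) in the optimal list had no replicate 2 value.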

How the data were processed

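CTCF ChIP-seq of B6NCrl mouse midbrain gave 5 deposited peak lists on mm10, per the deposited text notes: 1 from each replicate with a control alignment, 1 from both replicates, and an optimal and a conservative list thresholded by IDR. The aligner, peak caller, read depth, IDR threshold and scale of the signal are not named in any source read here. The signal column of each list is used as the authors deposited it. The optimal list was used for all counts, and the replicate lists, of 300000 peaks each, for replicate values (nearest summit within 100 bp). Gene starts came from GENCODE vM21 and sequence and repeat masking from GRCm38.p6. A CTCF matrix from the 2000 highest-signal peaks of odd-numbered chromosomes scored the even-numbered ones, and the reverse, with Python 3.11.15 and numpy 2.4.6, and was tested on simulated data. Members, gene lists and alternatives were chosen with earlier results of these data known. Named were all members, the 5 strongest peaks, the 3 most unequal between replicates, and the leading 2 genes of each pathway role. The 11-base core is the most frequent one in motif sites of all peaks. The list of pathway genes left out Porcn, on chromosome X. Counts were repeated with other windows, other motif thresholds, the conservative list, the stronger 50% of peaks, and each replicate left out.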

Additional observations from a re-analysis of the deposited data

How the results depend on the processing

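Of 39 repeats of 7 results with 1 choice changed, 27 left the value within 1.5 times (counts) or within the stated limit, and 12 moved it. Members with a peak within 1 kb, 17, came to 9 with the stronger 50% of peaks, where Dkk1, Fzd2, Fzd5, Fzd8, Sfrp1, Sfrp2, Wnt10b and Wnt8a lost theirs, and to 11 with a 500 bp window, where Wnt7a, Dkk3, Fzd2, Sfrp1, Wnt10b and Wnt8a did. The 158 peaks became 80 with the stronger 50% and 244 with 50 kb flanks. The motif share of 67.7% became 77.5% with the stronger 50%, 84.8% at a motif p of 1e-04 and 37.3% at 1e-06. The median signal percentile of 50.8 became 50.9 in the conservative list, 55.7 with 10 kb flanks and 50.3 with 50 kb flanks. The limit used here was an SD of 0.067, from the medians of the same peaks in the 2 replicates (50.9 and 51). This SD does not measure the error of the median, and even the change to 50.9 counted as moved. Leaving out a replicate (the other's strongest 66972 peaks, with no IDR step) gave 17 to 18 members within 1 kb, 27 to 28 within 5 kb, 154 to 164 peaks, a motif share of 62.8% to 65.6%, a percentile of 48.6 to 51.5 and 25 to 30 pathway genes. Of alternatives added after seeing the data, the share of downstream sites on the gene's strand was 41.3% with 50 kb and 11.5% to 27.8% otherwise, and 14 to 17 members lay between convergent sites. In each case the cause was not tested. No paired analysis was possible because there was 1 group and no comparison between groups. Depth is unknown, so weak peaks cannot be told from missing ones, and peaks are not replicates of a condition.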
